A study of Rattus norvegicus with 6 samples.

Results

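Chemokines and secreted cytokines of aortic smooth muscle were followed through 10 genes of the deposited count table, chosen by symbol from its 22574 genes. The chemokines were Ccl2, Ccl7, Cx3cl1, Cxcl1, Cxcl12 and Cxcl16, and the cytokines were Il6, Ifng, Tnf and Lif. All 10 symbols were found. The count filter of edgeR, filterByExpr, kept 9 of them among the 12591 genes tested and left out Tnf.

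The cells were RASMCs, primary vascular smooth muscle cells (VSMCs) grown out of the aortas of male Sprague-Dawley rats, 8 weeks of age. In 3 libraries they had received 0.03 μM citrullinated histone H3 (H3CIT) with 300 ng/ml double-stranded DNA (dsDNA), which are found in extracellular traps. The other 3 libraries were controls with bovine serum albumin (BSA). The labels name no genetic change in either group, and the length of the exposure is not given in the sources used here. Wells were plated with cells of the same rat, so the p-values measure the spread between wells and libraries and not between animals.

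Chemokines are small secreted proteins that draw leukocytes along a gradient through receptors of their own class. CCL2 and CCL7 attract monocytes, CXCL1 attracts neutrophils, and CXCL12 retains and guides many cell types. CX3CL1 and CXCL16 are made as membrane proteins and act as adhesion molecules until a protease sheds them. In the vessel wall, smooth muscle is a known source of CCL2, CXCL12 and IL-6 under inflammatory stimuli, whereas interferon gamma is classically a product of T and NK cells.

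The libraries held between 17573905 and 18742395 counts. Over all genes tested 277 were called, 2.2% of them, by the quasi-likelihood test of edgeR at a Benjamini-Hochberg adjusted p below 0.05, and 1.94% were called higher after H3CIT + dsDNA. Myh11, the smooth muscle myosin heavy chain, had 6385 to 6856 counts in every library. Of the other smooth muscle markers, Acta2, Tagln, Cnn1 and Smtn were called lower after H3CIT + dsDNA and Myocd was called higher. Myh11 and Lmod1 were not called. The defining leukocyte gene Ptprc had at most 1 count in any library. Of the macrophage markers, Cd14 had 921 to 994 counts and Csf1r 296 to 374. Of the endothelial markers, Kdr and Emcn had at most 1 count, while Cdh5 had 73 to 105 and Tie1 38 to 61. In bulk RNA, fewer cells of a type and less RNA per cell cannot be told apart. Levels are given as CPM, counts brought to a common library size by the TMM method, and since CPM is not divided by transcript length, levels were not compared between genes.

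Of the 9 members tested, 2 were called, and both were higher after H3CIT + dsDNA. They were Cx3cl1 and Ifng. The other 7 members, among them Ccl2, Cxcl1 and Cxcl12 with the most counts, were not called. The 95% intervals of these 7 reached at most a 1.36-fold rise and at most a fall to 0.808-fold. In 3 of the 9 members the CPM values of both groups did not overlap, against 19.1% of all genes tested.

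**Figure D1:**
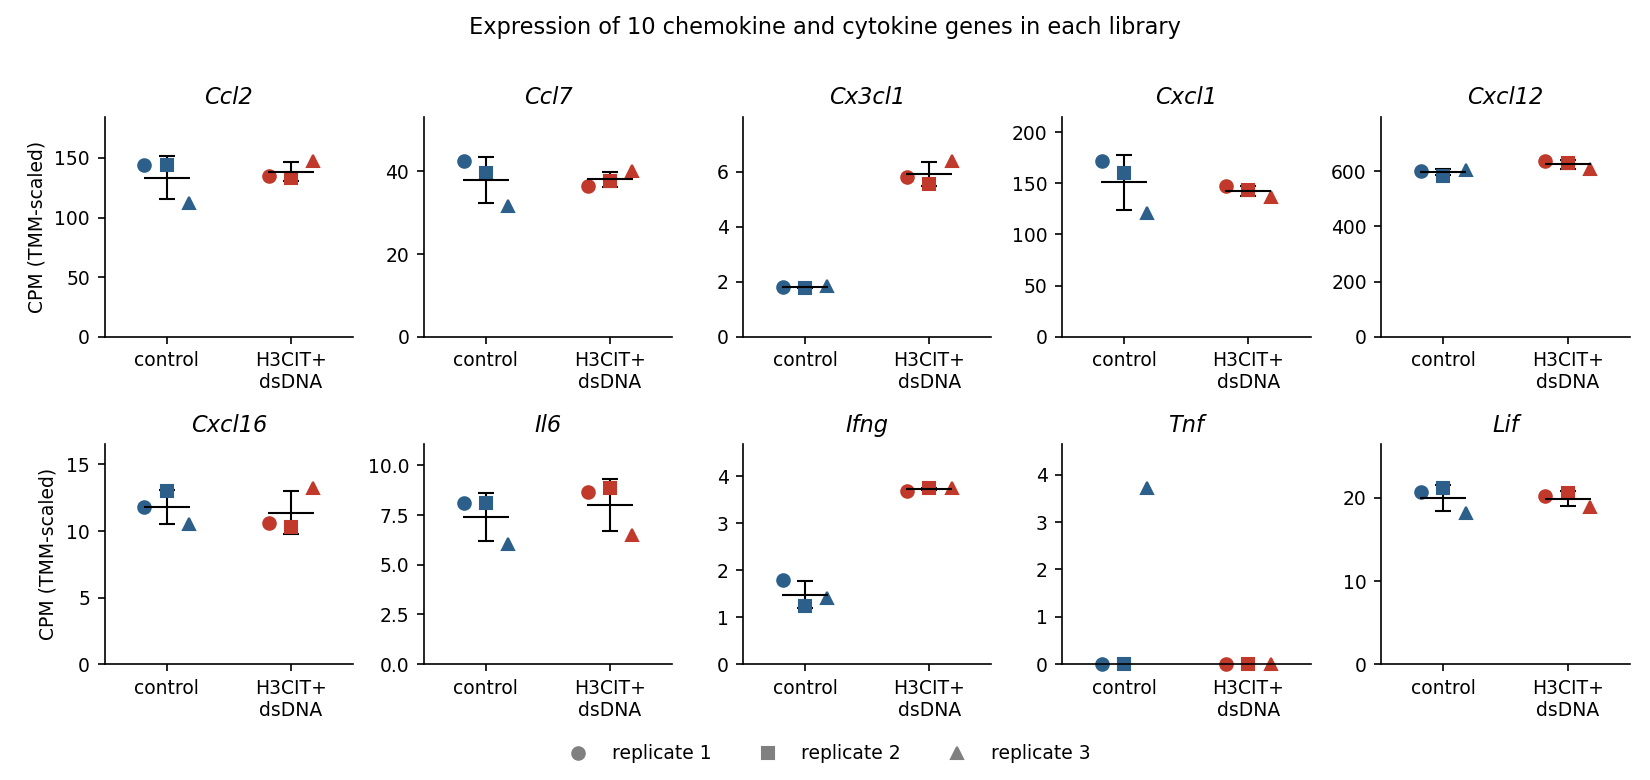
CPM of each of the 10 genes (vertical axes, each from 0) in the 3 control libraries (blue) and the 3 H3CIT+dsDNA libraries (red), with the replicate number as the symbol, and the mean ± SD as a bar except for Tnf. Cx3cl1 and Ifng separate the groups widely, Tnf stands above 0 only in control replicate 3, and 6 of the other members have their lowest control value in that same library.

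Promoter sequences were compared for what the members that rose and those that were not called share. RefSeq promoters of the later rat assembly GRCr8 were at hand for 8 of the 10 genes. The 250 bases before the annotated start of Cx3cl1 and Ifng are shown first, since these were the genes that rose, followed by the 100 bases before the start of Ccl7, Cxcl1 and Il6, in which a motif was found. Capitals mark a match to the kappaB consensus, the recognition sequence of NF-kB, or to TGANTCA, the AP-1 letters with any base allowed in the middle (N).
Cx3cl1, chr19:10242821-10243070, minus strand: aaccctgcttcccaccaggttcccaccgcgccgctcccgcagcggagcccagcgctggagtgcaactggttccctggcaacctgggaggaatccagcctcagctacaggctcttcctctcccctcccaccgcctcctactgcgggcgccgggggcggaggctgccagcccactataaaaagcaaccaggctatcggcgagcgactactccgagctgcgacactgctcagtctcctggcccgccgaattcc
Ifng, chr7:55788930-55789179, plus strand: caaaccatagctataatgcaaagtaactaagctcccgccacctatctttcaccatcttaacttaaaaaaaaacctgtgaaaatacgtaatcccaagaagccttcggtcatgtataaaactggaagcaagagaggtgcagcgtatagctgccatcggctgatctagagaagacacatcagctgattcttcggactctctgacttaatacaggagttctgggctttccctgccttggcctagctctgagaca
Ccl7, chr10:67513995-67514094, plus strand: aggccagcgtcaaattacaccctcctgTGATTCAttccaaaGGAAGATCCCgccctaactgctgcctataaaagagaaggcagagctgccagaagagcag
Cxcl1, chr14:17479322-17479421, minus strand: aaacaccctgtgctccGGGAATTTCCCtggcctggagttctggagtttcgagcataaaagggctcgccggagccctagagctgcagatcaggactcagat
Il6, chr4:5894576-5894675, minus strand: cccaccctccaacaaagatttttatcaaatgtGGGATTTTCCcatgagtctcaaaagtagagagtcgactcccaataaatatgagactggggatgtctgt

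The kappaB consensus, searched on both strands, was in 3 of the 8 promoters, against 6.41% of 27457 rat promoters of the same length. In Cxcl1 it lay 84 to 74 bases before the start as 2 overlapping matches on opposite strands, in Il6 68 to 59 bases before it, and in Ccl7 59 to 50 bases before it. TGANTCA was found in Ccl7 alone, as TGATTCA 73 to 67 bases before the start, and in 6.36% of all promoters. Neither motif stood in the windows of Cx3cl1 and Ifng, the members that were called. Of the members not called, Ccl7, Cxcl1 and Il6 had a match, while Cxcl12 and Cxcl16 had neither motif. Tnf, which was not tested, had neither motif as well. Ccl2 and Lif, also not called, had no promoter at hand. The match is of letters in a window only, and the gene entry of Cx3cl1 reaches further upstream than the start used for its window.

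Cx3cl1 encodes fractalkine, the ligand of CX3CR1 on monocytes, macrophages and NK cells. Its counts were 105, 98 and 116 with H3CIT + dsDNA, compared with 32, 33 and 34 in the controls. Every challenged library lay far above every control. The level was 5.91 ± 0.428 CPM (SD, n = 3) against 1.80 ± 0.0277 CPM (SD, n = 3), a 3.28-fold rise with a 95% interval of 2.54 to 4.25. On the log2 scale the difference was 1.72 (standard error, SE, 0.17, edgeR's adjusted p = 3.17e-05). Cx3cl1 was called under all 15 alternatives, with log2 fold changes between 1.65 and 1.76.

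Ifng encodes interferon gamma, the cytokine that activates macrophages. Its counts were 67, 66 and 68 with H3CIT + dsDNA, compared with 32, 23 and 26 in the controls, again with no overlap between the groups. The control level of 1.48 ± 0.285 CPM rose to 3.73 ± 0.0291 CPM (SD, n = 3 each), by 2.53-fold with a 95% interval of 1.83 to 3.49. On the log2 scale the difference was 1.34 (SE 0.21, edgeR's adjusted p = 0.00327), and it stayed called under all 15 alternatives with adjusted p-values between 0.000288 and 0.0230. The counts are few, so that counting error is a large part of the error of this estimate.

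Markers of T and NK cells, the classical source of interferon gamma, were close to 0 in both groups. None of the 12 marker genes passed the count filter, and their summed counts ran from 26 to 33 in the H3CIT + dsDNA libraries and from 24 to 28 in the controls. Cd3d, Cd8a, Klrb1a and Klrd1 had no count in any library. Cd3e had at most 4 counts and Nkg7 at most 10, both with overlapping groups. Gzmb had 5, 6 and 3 counts in the challenged libraries and 2, 2 and 1 in the controls. This marker separated the groups in the direction of Ifng, and its part in the rise of Ifng was not tested. Groups did not overlap, in either direction, in 19.1% of all genes tested. Cd3g lay the other way, with 3, 2 and 0 counts against 5, 6 and 2. Mean CPM was lower after H3CIT + dsDNA for Cd3g, Nkg7 and Prf1, and higher for Gzmb, Tbx21, Cd3e, Cd4 and Cd2. The largest count was 14, of Tbx21, the gene of the transcription factor T-bet, in 1 challenged library.

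The counts of the members that rose were unusually close to each other within a group. The 3 control counts of Cx3cl1 and the 3 challenged counts of Ifng were each 3 consecutive whole numbers, with an SD of 1 count. Counting noise alone, taken as the square root of the mean, is 5.74 counts for Cx3cl1 in controls and 8.19 counts for Ifng after H3CIT + dsDNA. In the remaining group of each gene the SD was 9.07 counts for Cx3cl1 and 4.58 counts for Ifng, close to counting noise. Among the 7 tested members that were not called, by contrast, the SD exceeded counting noise in both groups of 6, Ccl2, Ccl7, Cxcl1, Cxcl12, Cxcl16 and Il6, and in the controls of Lif. Over all tested genes with a group mean of 20 to 250 counts, 1.99% of 7700 triples of counts spanned at most 2 counts. The share was 25.0% of 144 triples in called genes and 1.55% of 7556 in the others. A test for differences favours genes with a narrow spread, and the part of this narrow spread in the calls was not tested.

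**Figure D2:**
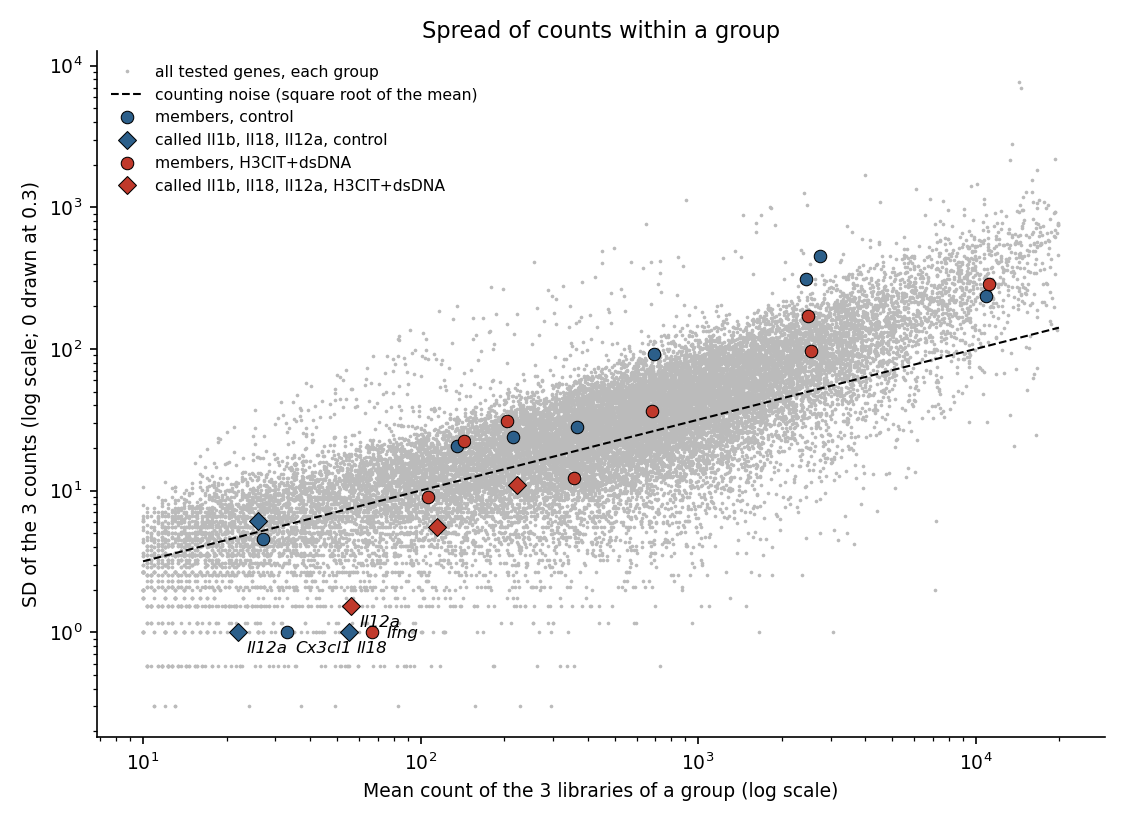
SD of the 3 counts of a group (vertical axis, log scale) against their mean (horizontal axis, log scale) for every tested gene in the range of means shown (grey, 1 point per gene and group), the 9 tested members (circles) and the called genes Il1b, Il18 and Il12a (diamonds), in controls (blue) and after H3CIT+dsDNA (red), with counting noise as a dashed line. Cx3cl1 in controls and Ifng after H3CIT+dsDNA lie far below the line, at an SD of 1 count, while most members lie above it.

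Tnf encodes tumor necrosis factor, an activator of NF-kB and of endothelial adhesion. It had no count in the 3 H3CIT + dsDNA libraries, no count in control replicates 1 and 2, and 69 counts in control replicate 3. That library alone gave 3.72 CPM. In the other 5 libraries a count of 0 allows up to 3 counts, or 0.162 to 0.170 CPM, counting error only. No mean or fold change is given, because 1 library holds every count, and Tnf did not pass the filter. With no filter on low counts edgeR gave it an adjusted p of 0.0737. Among all 22574 genes, 3 had at least 20 counts in 1 library and 0 in the other 5, and Tnf was the only one of them in control replicate 3. Its neighbours in the genome Lta and Ltb, which encode lymphotoxins, had no count in any of the 6 libraries.

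Ccl2 and Ccl7 encode monocyte chemoattractants that lie side by side on the chromosome. Ccl2 had counts of 2450, 2346 and 2679 with H3CIT + dsDNA, compared with 2569, 2673 and 2091 in the controls. The groups overlapped, with control replicates 1 and 2 above challenged replicates 1 and 2, and control replicate 3 was the lowest of all. Its level was 139 ± 7.83 CPM against 134 ± 18.1 CPM in controls (SD, n = 3), a 1.04-fold difference with a 95% interval of 0.921 to 1.17 (edgeR's adjusted p = 0.817). Ccl7 had counts of 662, 663 and 726 against 759, 735 and 589, a log2 difference of 0.0040 with the fold between 0.875 and 1.15 (edgeR's adjusted p = 0.993). Both genes were lowest in the same library, and the ratio of Ccl2 to Ccl7 counts lay between 3.38 and 3.70 in all 6 libraries.

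Cxcl1, a neutrophil attractant, was the tested member with the most negative difference. It had counts of 2669, 2528 and 2483 with H3CIT + dsDNA, compared with 3068, 2967 and 2244 in the controls. Control replicates 1 and 2 lay above all challenged libraries and control replicate 3 below all of them. The fold was 0.944 with a 95% interval of 0.819 to 1.09 (log2 difference -0.08, SE 0.09, edgeR's adjusted p = 0.754). Without control replicate 3 the log2 fold change was -0.22 and the gene was called lower (edgeR's adjusted p = 0.0240), which made 3 called members in that fit.

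Cxcl12, the ligand of CXCR4 and ACKR3, had counts of 11544, 11066 and 11023 against 10739, 10803 and 11179 in the controls. After TMM scaling all 3 challenged libraries, at 607 to 637 CPM, lay above the controls, at 582 to 602 CPM. The gap between the groups was narrow, 1.05-fold with a 95% interval of 0.997 to 1.10, and Cxcl12 was not called (edgeR's adjusted p = 0.391). Cxcl12 held 61.8% to 68.4% of the summed counts of the 6 chemokines. Cx3cl1 rose from at most 0.208% of that sum in controls to at least 0.580% after H3CIT + dsDNA. These are shares of counts not divided by transcript length, so they compare libraries and not the levels of genes.

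Cxcl16, which is also a scavenger receptor for oxidized lipoprotein in its membrane form, had counts of 192, 182 and 240 against 211, 242 and 195. The groups overlapped, with a fold of 0.965 and an interval of 0.808 to 1.15 (edgeR's adjusted p = 0.890). Its interval did not reach a rise of 2.54-fold, the lower bound for Cx3cl1, the other chemokine made as a membrane protein. The difference between the 2 genes was not tested.

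Il6 and Lif encode 2 cytokines that signal through gp130 and STAT3. Il6 had counts of 157, 156 and 118 with H3CIT + dsDNA, compared with 145, 150 and 112 in the controls. In each group replicates 1 and 2 were close together and replicate 3 lay lower, and the groups overlapped. Its fold was 1.08 with a 95% interval of 0.855 to 1.36 (edgeR's adjusted p = 0.809), the widest interval of the 7 genes. Lif had counts of 367, 363 and 344 against 369, 393 and 337, a fold of 0.996 with an interval of 0.886 to 1.12 (edgeR's adjusted p = 0.987).

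Control replicate 3 had the lowest CPM of the 3 controls in 6 of the 9 tested members, Ccl2, Ccl7, Cxcl1, Cxcl16, Il6 and Lif, and in 4 of 7 other chemokine ligands tested. Over all genes tested it was the lowest control in 34.6%. When this library was left out, the log2 fold changes of Ccl2, Ccl7 and Il6 moved from 0.054, 0.0040 and 0.11 to -0.055, -0.11 and -0.019, none of them called. The same library held all counts of Tnf. Cx3cl1 and Ifng kept their calls without it, at log2 fold changes of 1.73 and 1.3.

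**Figure D3:**
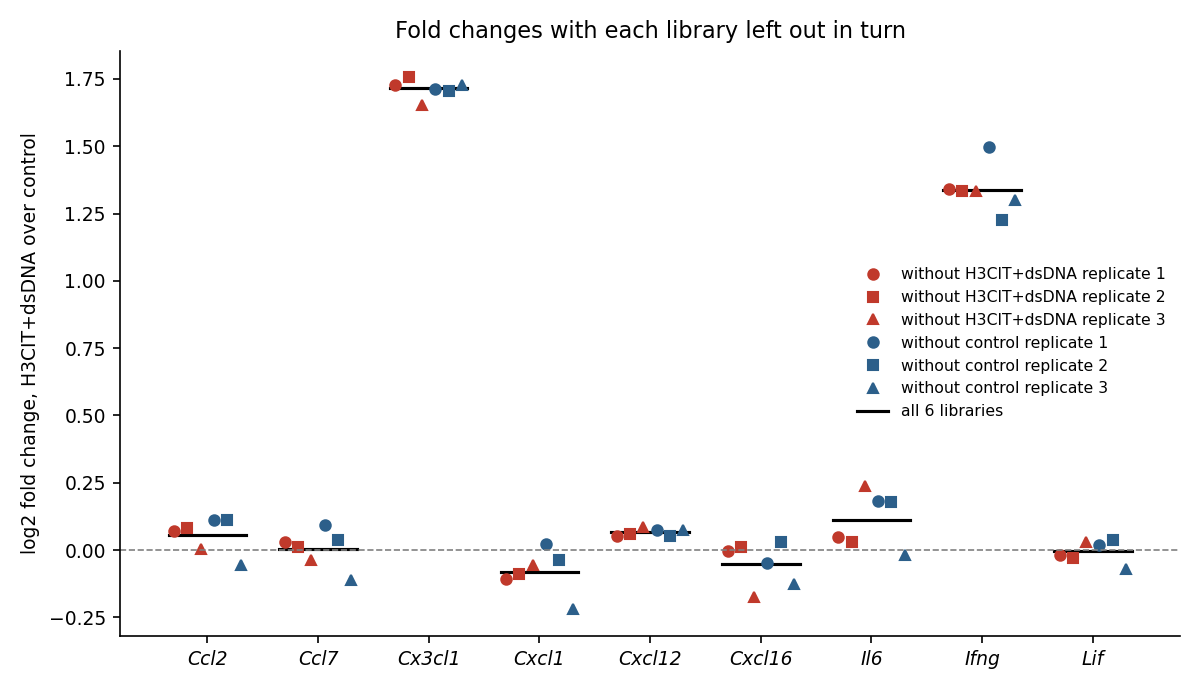
Log2 fold change of the 9 tested members (vertical axis) with all 6 libraries (black line) and with each library left out in turn (symbols, red for an H3CIT+dsDNA library and blue for a control left out). Cx3cl1 stays between 1.65 and 1.76 and Ifng between 1.23 and 1.5, while the others stay near 0 and Cxcl1 reaches -0.22 without control replicate 3.

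The wider family was examined through lists of other ligands, receptors, proteases and RNA-binding proteins. Of 31 other chemokine ligands 7 were tested and none was called by edgeR, with log2 fold changes between -0.27 and 0.32 and a median of -0.034, where the median of all genes tested was -0.0013. Ccl20, which attracts cells with CCR6, was at 0.32 (edgeR's adjusted p = 0.398). Cxcl10, an interferon-induced T-cell attractant, had 85, 65 and 94 counts with H3CIT + dsDNA against 101, 115 and 83 for a log2 difference of -0.27 (edgeR's adjusted p = 0.553). Of the 23 that had values but were not tested, none had more than 13 counts in any library, and 9 had none at all. Cxcl5 had no values here. At an unadjusted p under 0.05 the count was also 0 of 7, where 13.9% of all genes tested had such a p.

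Of 32 other cytokines 14 were tested, 3 were called higher and none lower, where 1.94% of all genes tested were called higher. At an unadjusted p under 0.05 by edgeR the count was 4 of 14, Il1b, Il18, Il12a and Il12b, against 13.9% of all genes tested. Il1b, the pyrogenic cytokine processed by the inflammasome, had counts of 116, 109 and 120 against 22, 23 and 33, a 4.51-fold rise (log2 difference 2.17, SE 0.19, edgeR's adjusted p = 9.74e-06). Il18, which is processed by the same caspase, had counts of 211, 222 and 233 against 54, 55 and 56, a 4.12-fold rise (edgeR's adjusted p = 1.20e-07). Il12a, the p35 chain of IL-12, had counts of 56, 55 and 58 against 23, 22 and 21, a 2.61-fold rise (edgeR's adjusted p = 0.00242). The control counts of Il18 and of Il12a were again runs of consecutive whole numbers.

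Il12b, the p40 chain shared by IL-12 and IL-23, had counts of 54, 55 and 57 against 32, 33 and 34, or a log2 difference of 0.77 (edgeR's adjusted p = 0.0730). Its control counts were the same as those of Cx3cl1 in each of the 3 libraries. Il23a, the partner chain of IL-23, had a log2 fold change of 0.0019 (SE 0.17, edgeR's adjusted p = 0.998). Il1a and Il1rn, the other IL-1 ligand and the natural antagonist, were not called, at log2 fold changes of -0.046 and 0.064 (edgeR's adjusted p = 0.953 and 0.712). The median over the 14 cytokines was 0.026.

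**Figure D4:**
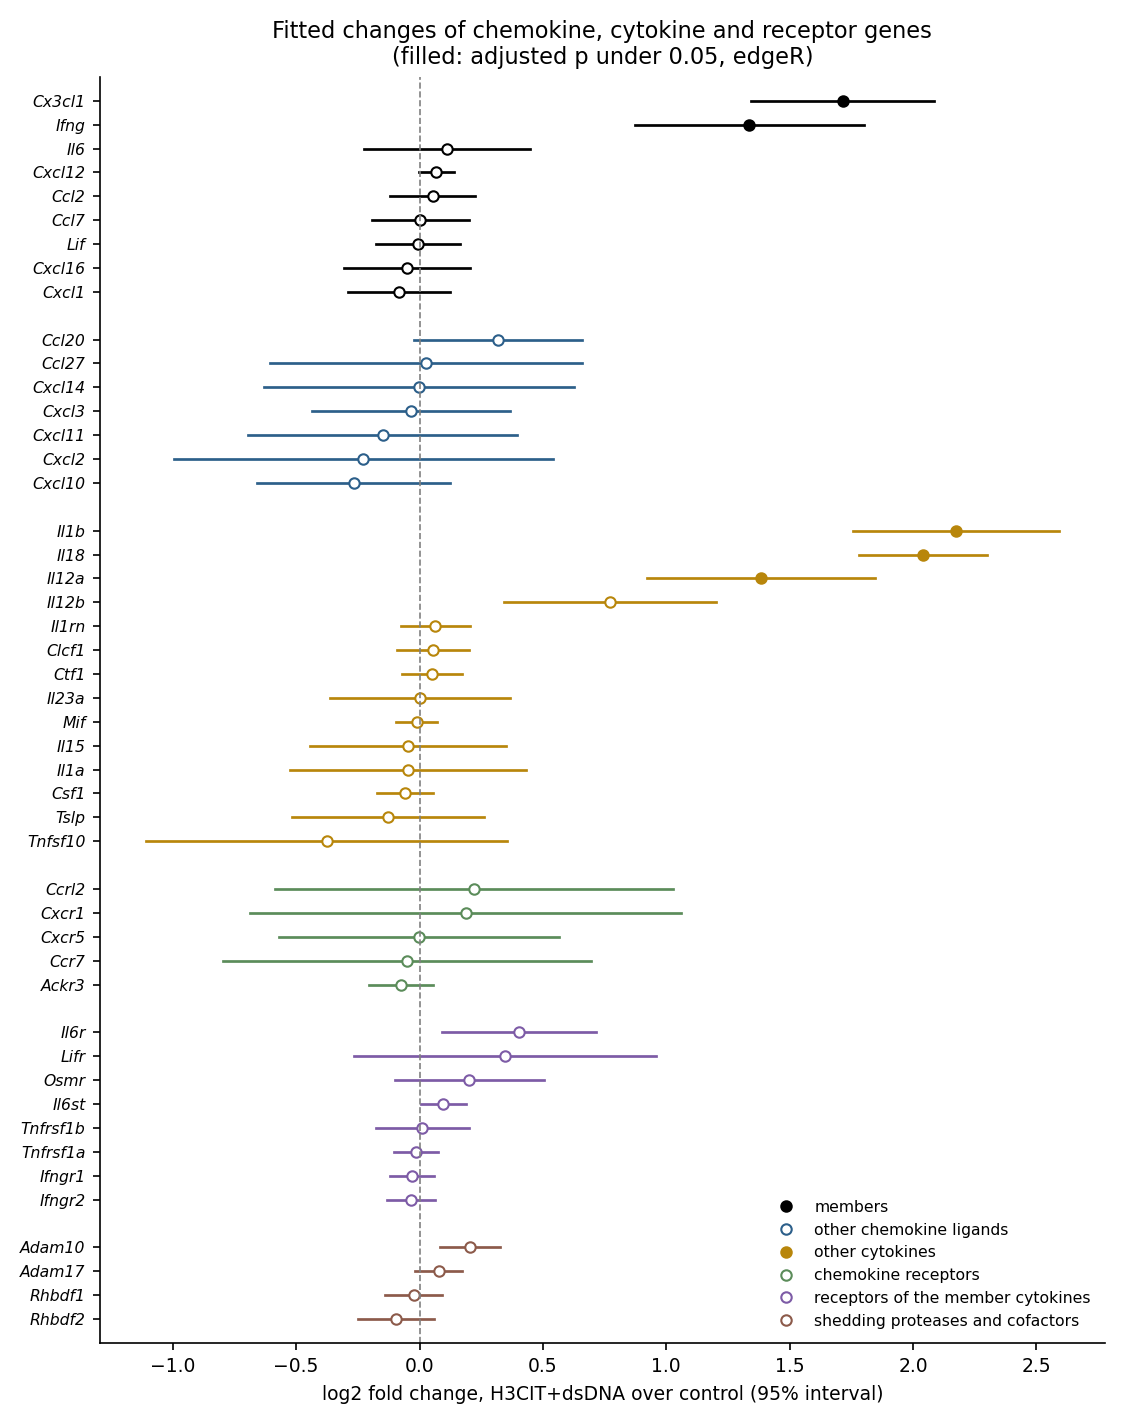
Log2 fold change of H3CIT+dsDNA over control (horizontal axis) with its 95% interval from the edgeR fit, for each tested gene of 6 lists (colors), filled where the adjusted p-value is under 0.05. Cx3cl1, Ifng, Il1b, Il18 and Il12a are the 5 filled points, all to the right of 0, and the intervals of the other members lie around 0.

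Receptors for these ligands were scarce in the cells. Of 23 chemokine receptors 5 were tested and none was called by edgeR, with 0 at an unadjusted p under 0.05. Cx3cr1, the receptor of fractalkine, had at most 2 counts in any library, Cxcr2, the receptor of CXCL1, at most 3, and Cxcr4 and Cxcr6, those of CXCL12 and CXCL16, had none. Ackr3, a scavenging receptor of CXCL12, was the exception, with counts of 652, 600 and 650 against 631, 684 and 727 for a log2 difference of -0.074 (edgeR's adjusted p = 0.624). Ccr2, the receptor of CCL2 and CCL7, was among the 23 by name but had no values here, so that nothing is said of its level.

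The receptors of the cytokines were all tested, 8 of 8, and none was called by edgeR, with 2 at an unadjusted p under 0.05, Il6r and Il6st, against 13.9% of all genes tested. Ifngr1 and Ifngr2, the chains of the interferon gamma receptor, had log2 fold changes of -0.032 and -0.035 with standard errors of 0.041 and 0.045. Tnfrsf1a, the main receptor of tumor necrosis factor, was at -0.015 with an SE of 0.042. Il6r, the IL-6 binding chain, had counts of 188, 177 and 211 against 178, 120 and 145 for a log2 difference of 0.40 (SE 0.14, edgeR's adjusted p = 0.222), and Il6st, which encodes gp130, was at 0.096 (edgeR's adjusted p = 0.333).

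Proteases that shed CX3CL1, CXCL16 and tumor necrosis factor were not called either. Adam10, the constitutive sheddase of both chemokines, had counts of 1043, 930 and 977 against 796, 881 and 931, a 1.15-fold difference (log2 difference 0.21, SE 0.056, edgeR's adjusted p = 0.0903). By edgeR this reached 0.0472 with robust dispersion estimates and 0.0385 without control replicate 3. Adam17, the sheddase of tumor necrosis factor, was at 0.079 (edgeR's adjusted p = 0.470), and Rhbdf2, its cofactor, at -0.095 (edgeR's adjusted p = 0.594). Of the 4 tested genes of this list, Adam10 was the 1 with an unadjusted p under 0.05, against the same 13.9%. Of 9 RNA-binding proteins that set the stability of cytokine transcripts none was called by edgeR, and their log2 fold changes ran from -0.032 for Zfp36, which encodes tristetraprolin, to 0.24 for Rc3h1, which encodes roquin (edgeR's adjusted p = 0.0989) and was the 1 with an unadjusted p under 0.05. DESeq2 and limma-voom likewise called 0 genes among the other chemokine ligands, both receptor lists, the proteases and the RNA-binding proteins.

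Of 10 macrophage markers 5 were tested and none was called by edgeR, with 0 at an unadjusted p under 0.05, and the summed level of all 10 was 72.7 to 75.0 CPM after H3CIT + dsDNA and 73.6 to 76.6 CPM in controls. Most of that sum was Cd14 and Csf1r, while Cd163 had at most 1 count, C1qb none, and Cd68 10 to 19 counts. Aif1, a gene of macrophages and microglia, was too low to be tested. It had 8, 9 and 9 counts in the challenged libraries and 2, 2 and 3 in the controls. This macrophage marker thus separated the groups in the direction of Cx3cl1 and Ifng, and its part in their rise was not tested. Groups did not overlap, in either direction, in 19.1% of all genes tested. The log2 fold changes of the 5 tested macrophage markers went both ways. Lyz2 was at -0.83, Csf1r at -0.13 and Cd14 at -0.0061, whereas Cd68 was at 0.19 and Adgre1 at 0.23. Among endothelial markers the sum was 8.44 to 8.91 CPM against 9.81 to 10.6 CPM in controls, and none of the 4 tested of 7 was called by edgeR or had an unadjusted p under 0.05. The 5 fibroblast markers, 2 of them tested and neither called by edgeR or under an unadjusted p of 0.05, summed to 2.64 to 4.14 CPM against 2.59 to 4.93 CPM. Of the 7 smooth muscle markers 4 were called lower and 1 higher, where 2.2% of all genes tested were called. Acta2 was at 0.620-fold and Tagln at 0.756-fold (edgeR's adjusted p = 6.51e-06 and 2.86e-05), and Smtn at 0.867-fold (edgeR's adjusted p = 0.0386). Cnn1, which encodes calponin, had the largest fall (log2 difference -1.57, edgeR's adjusted p = 9.54e-08), and Myocd, which encodes a coactivator of contractile genes, rose by 1.09 on the log2 scale (edgeR's adjusted p = 1.60e-06). The part of the smooth muscle state in the changes of Cx3cl1 and Ifng was not tested.

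The tested genes whose pattern over the 6 libraries was most like that of Cx3cl1 and Ifng depended on the pseudocount. Likeness was the root mean square difference of log2 CPM after subtraction of the control mean. With 0.5 CPM added, which shrinks the differences of genes with few counts, the nearest gene to Cx3cl1 was Aifm3, of the apoptosis-inducing factor family, at 0.045, and that to Ifng was Edn1, which encodes the vasoconstrictor endothelin-1, at 0.052. Their own log2 fold changes were 1.5 and 1.08, below those of Cx3cl1 and Ifng. With nothing added, over genes with counts in every library, the nearest gene to Cx3cl1 was Nlrc4, which encodes an inflammasome sensor, at 0.061, with counts of 233, 222 and 255 against 78, 77 and 75. The nearest to Ifng was then Gsdma, a gasdermin gene, at 0.12, with counts of 33, 32 and 31 against 14, 13 and 12.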

How the data were processed

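RNA of RASMCs from 3 H3CIT + dsDNA and 3 BSA control wells was made into stranded mRNA libraries. The authors mapped the reads to rat Rnor6.0 with TopHat 2.1.1, obtained reads per gene from HTSeq, and deposited these as raw counts without normalization. The submitters' processing notes also name Cufflinks 2.2.1 and Cuffdiff. The strand setting of the counting is not given in the sources used here, so overlapping genes can share reads.

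Groups came from the sample titles. Genes passing filterByExpr were scaled by TMM and tested, two-sided, by quasi-likelihood in edgeR 4.0.16 under R 4.3.3, with Benjamini-Hochberg adjustment over all 12591 genes. Each standard error was derived from the coefficient and its F statistic. The fits were tested on simulated data. Library totals of at least 17573905 counts leave genes under 20 counts with a large counting error.

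All 10 members are named. The rule named, of each list, the called genes, up to 6, at most 3 not called that bind or cut a member, and the tested gene nearest in pattern to each called member. Ccl20, Cxcl10, Il12b, Il23a, Il1a, Il1rn, Lta, Ltb, Zfp36, Rc3h1, Nlrc4, Gsdma, the markers and all receptors beyond 3 per list were named after their values were seen. The members, lists and tests were chosen with earlier results of these data known. Alternatives were other scalings, DESeq2 1.42.0, limma-voom (limma 3.58.1), other filters, robust dispersion, a fit with the replicate block, and fits without each library in turn. Same-numbered libraries did not deviate together (correlations across genes of -0.0459 to 0.0355). These values cannot show whether wells of the same number were handled as pairs, and the sample titles do not say so. Promoters are RefSeq sequences of GRCr8 and entered no test, and the result for a further motif is not reported here.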

Additional observations from a re-analysis of the deposited data

How the results depend on the processing

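Of the 9 tested members 2 were called with all libraries, under all 9 alternatives that kept all libraries and in 5 of the 6 fits that left out 1 library, and 3 without control replicate 3, where Cxcl1 was called lower. Of 135 member values under alternatives, 122 kept direction and side of the threshold, 12 changed sign with no call on either side, and 1, that of Cxcl1, passed the threshold. Ccl7 was at -0.013 on the log2 scale with upper-quartile scaling, and Lif at 0.014 with library size alone; the cause was not tested. With each library left out, the log2 fold change ran from -0.055 to 0.11 for Ccl2, from -0.11 to 0.093 for Ccl7, from -0.22 to 0.021 for Cxcl1, from -0.17 to 0.028 for Cxcl16, from -0.019 to 0.24 for Il6 and from -0.071 to 0.038 for Lif.

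Over all genes, calls ran from 212 to 376 under the alternatives that kept all libraries. With each library left out they ran from 164, without H3CIT+dsDNA replicate 1, to 357, without control replicate 3, and numbered 184 without control replicate 1, against 277 with all 6 libraries. With the replicate block 212 genes were called, Cx3cl1 and Ifng among them (edgeR's adjusted p = 0.000448 and 0.0159), and no call of a member changed. The count of 3 called genes among the other lists, an alternative added after the data were seen, was 3 or 4 under every setting, the fourth being Il12b with at least 10 counts in every library (edgeR's adjusted p = 0.0481) and Adam10 with robust dispersion or without control replicate 3. Most chemokine receptors and 23 of the other chemokine ligands had too few counts to be tested. Of these, 6 receptors and 9 ligands had no count in any library, and the part of sequencing depth was not tested. Tnf was not tested because 5 libraries held no count.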
